A study of Mus musculus with 16 samples.

Results

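Leukotrienes and prostaglandins are lipid mediators made from arachidonic acid, and their genes were followed here in sorted mouse neutrophils. The 9 genes are Pla2g4a, Alox5, Alox5ap, Lta4h, Ltc4s, Ltb4r1, Ptgs1, Ptgs2 and Ptges, chosen by name as synthesis enzymes and the leukotriene B4 receptor, out of 49315 genes in the count files. The study asked how integrin αD (CD11d, gene Itgad) acts in sepsis, and neutrophil RNA was sequenced as a part of it. Cells carrying Ly6G, CD11b and CD45.2 were sorted from blood and from lung, and the donors were male mice aged 8 to 12 weeks. The mice were WT or αD KO (aD KO in the labels), a knockout present in all cells and not in neutrophils alone, and were either untreated (0h) or taken 12h after cecal ligation and puncture (CLP), a surgery that lets gut bacteria into the abdomen. The 8 groups were thus WT blood 0h, WT blood 12h, αD KO blood 0h, αD KO blood 12h, WT lung 0h, WT lung 12h, αD KO lung 0h and αD KO lung 12h. No sham-operated group is among them, so surgery and sepsis cannot be told apart at 12h.

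Arachidonic acid is released from membrane phospholipid by cytosolic phospholipase A2. In the leukotriene route, 5-lipoxygenase with its activating protein turns it into leukotriene A4. LTA4 hydrolase then makes leukotriene B4, a strong chemoattractant of neutrophils, while LTC4 synthase makes the cysteinyl leukotrienes typical of mast cells, basophils and eosinophils. In the prostaglandin route, cyclooxygenases make prostaglandin H2, and prostaglandin E synthase turns it into prostaglandin E2. Neutrophils are known for making leukotriene B4 and for following it through the receptor BLT1.

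Each group has 3 count files under 2 samples. Sample 1 gave libraries 1a and 1b and sample 2 gave library 2, so n = 3 per group. It is not stated if 1a and 1b are from different animals, so p-values may measure technical spread. Total counts per library were 5753476 to 29984954. Libraries 1b had more genes with counts (29162 to 38844) than libraries 1a and 2 (17132 to 32666). Values are given as CPM (a gene's count over the library's total, scaled to a common size) with TMM factors over the 24 libraries. In such bulk samples, fewer cells of a type and less RNA per cell cannot be told apart. A gene was called at a Benjamini-Hochberg adjusted p under 0.05 in edgeR's quasi-likelihood test over all genes tested, with an absolute log2 fold change over 1.

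Itgad itself ranged from 12.5 to 102 CPM over the 12 αD KO libraries and from 0.0583 to 3.67 CPM over the 12 WT libraries. The gene said to be knocked out was thus higher in every library labelled αD KO, the reverse of what a loss of its RNA would give. Counts over a whole gene cannot separate intact RNA from RNA made by the targeted allele, so correct and exchanged labels cannot be told apart here. WT and αD KO below always mean the libraries so labelled, and the direction of each difference between them rests on these labels. All 10 neutrophil markers (S100a8, S100a9, Ly6g, Csf3r and others) had counts in every group. On an axis drawn through 1326 genes called between WT lung 0h and WT lung 12h, without the genes described here, 3 αD KO lung libraries lay near the end opposite to their label. The library labelled αD KO lung 0h 2 lay at 1.03, near the WT 12h end (1 on this axis). The libraries labelled αD KO lung 12h 1a and 2 lay at 0.0995 and 0.187, near the WT 0h end (0 on this axis). These 3 libraries are said below to have gone against their labels, which means only this place on the axis. A wrong label, an effect of genotype and an uneven response to CLP cannot be told apart here. The paper reports no differentially expressed gene between the times in αD KO lung. Log2 values from edgeR that use these libraries are also given without them, from a fit of all 8 groups that leaves 1 αD KO lung library at 12h, taken to vary like the other groups. With them, no member was called by the edgeR test above in any comparison that uses αD KO lung, interactions included. Without them a group of 1 library leaves little power for a call, so only log2 values are read from that fit. As these libraries were picked by the WT change, leaving them out moves genes of that change towards it.

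Of the 9 genes, cytosolic phospholipase A2 (Pla2g4a, ENSMUSG00000056220) lies on GRCm38 chromosome 1 from 149829618 to 149961290, minus strand. The 5-lipoxygenase gene Alox5 (ENSMUSG00000025701) lies on chromosome 6 from 116410077 to 116461178, minus strand. Its partner Alox5ap (ENSMUSG00000060063), coding for the activating protein FLAP, lies on chromosome 5 from 149264767 to 149288153, plus strand. Lta4h (ENSMUSG00000015889) lies on chromosome 10 from 93453411 to 93484875, plus strand, and Ltc4s (ENSMUSG00000020377) on chromosome 11 from 50236469 to 50238616, minus strand. The BLT1 receptor gene Ltb4r1 (ENSMUSG00000046908) lies on chromosome 14 from 55765962 to 55768494, plus strand. Cyclooxygenase 1 (Ptgs1, ENSMUSG00000047250) lies on chromosome 2 from 36230426 to 36252272, plus strand, and the inducible cyclooxygenase 2 (Ptgs2, ENSMUSG00000032487) on chromosome 1 from 150100031 to 150108227, plus strand. Prostaglandin E synthase 1 (Ptges, ENSMUSG00000050737) lies on chromosome 2 from 30889471 to 30929863, minus strand. Counts are over exons, UTRs included. Alox5ap shares 189 exonic bases with the antisense gene Gm19719, Ltc4s 192 with Gm26542 and Ptgs1 148 with Gm43621, and the strand of counting is not stated, so reads from these stretches may belong to either gene.

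The 250 bases upstream of the RefSeq start are shown for the 3 genes with the largest fitted changes among those called in WT blood at 12h, Ltb4r1 and Ptges upward and Ptgs2 downward. Capitals mark the GC box GGGCGG, or CCGCCC on the other strand.
Ltb4r1: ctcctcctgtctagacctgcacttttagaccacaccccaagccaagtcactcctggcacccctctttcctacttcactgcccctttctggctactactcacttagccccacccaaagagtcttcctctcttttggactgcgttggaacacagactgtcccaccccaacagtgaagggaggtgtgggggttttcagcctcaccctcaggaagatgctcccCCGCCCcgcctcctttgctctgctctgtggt
Ptges: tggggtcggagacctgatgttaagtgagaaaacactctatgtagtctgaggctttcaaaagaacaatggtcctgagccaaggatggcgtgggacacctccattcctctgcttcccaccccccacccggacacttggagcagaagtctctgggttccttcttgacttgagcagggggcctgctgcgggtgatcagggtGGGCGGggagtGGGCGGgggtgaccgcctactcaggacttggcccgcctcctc
Ptgs2: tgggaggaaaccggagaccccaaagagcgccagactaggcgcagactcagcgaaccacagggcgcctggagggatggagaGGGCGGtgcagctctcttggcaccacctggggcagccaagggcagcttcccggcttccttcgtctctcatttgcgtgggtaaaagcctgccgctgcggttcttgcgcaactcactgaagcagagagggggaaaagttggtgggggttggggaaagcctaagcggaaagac

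These windows are on GRCm38.p6, for Ltb4r1 at chromosome 14 from 55765712 to 55765961 (plus strand), for Ptges at chromosome 2 from 30903298 to 30903547 (minus strand) and for Ptgs2 at chromosome 1 from 150099781 to 150100030 (plus strand). The RefSeq start used for Ptges lies inside the longer gene of the files. Of the 9 genes, 8 matched the table of such windows and Alox5ap did not. The GC box lay 31 to 26 bases before the start in Ltb4r1, 53 to 48 and 42 to 37 bases before it in Ptges, 170 to 165 bases before it in Ptgs2 and 35 to 30 bases before it in Alox5. It is a common motif, held by 32.7% of 32851 windows of this length. Searched on both strands, the other 8 motifs were found in none of these 4 windows. They were TATAAA (12.4% of windows), TGACGTCA (1.55%) and its first part TGACG (17.8%), TGACTCA (4.46%), GGGNNTTCC (4.98%) and the form GGGNTTTCC that can overlap it (1.46%), TTGCNNCAA (1.74%) and CACGTG (6.02%). Their absence says only that these letters are not in the window.

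Of the 9 genes, Alox5ap had the highest median level per kilobase and Pla2g4a, Ptges and Ltc4s the lowest. Per kilobase of exon, the median over the 24 libraries was 791 CPM per kb for Alox5ap, 171 for Ptgs2, 124 for Ltb4r1 and 106 for Alox5. Lta4h followed at 18.8 CPM per kb, then Ptgs1 at 5.92, Pla2g4a at 2.53, Ptges at 1.49 and Ltc4s at 1.35. Neighbours in this order overlapped: Ltb4r1 ranged over libraries from 22.7 to 554 CPM per kb and Alox5 from 59.3 to 193. Ptgs2 ranged from 1.78 to 399 CPM per kb, so its place rests on the other groups: in all 6 blood libraries at 12h it lay below Lta4h, with means of 4.70 ± 3.43 against 51.3 ± 28.6 CPM per kb in WT and 7.58 ± 9.56 against 36.2 ± 8.14 in αD KO (SD, n = 3). Ltc4s was at 0 to 2.79 CPM, and Ltb4r2, the second leukotriene B4 receptor, at 0 to 0.751 CPM.

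**Figure D1:**
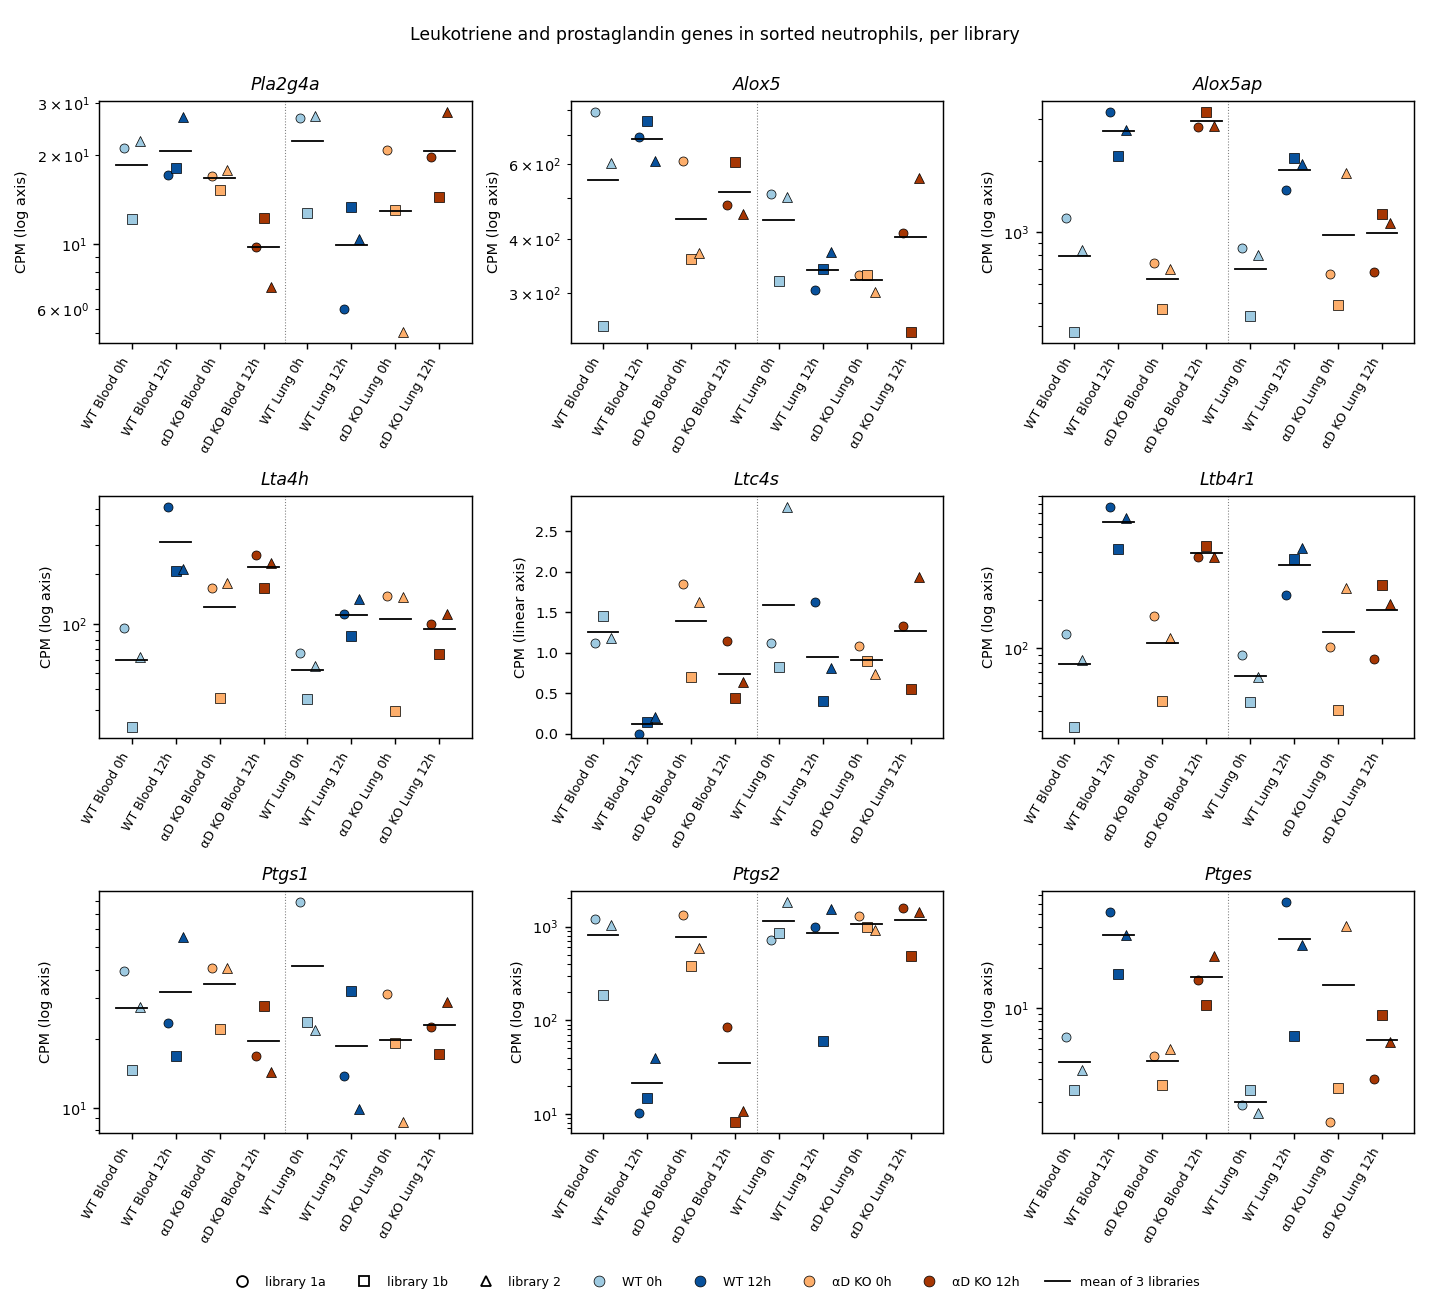
Level of each of the 9 genes (CPM, log axis, with a linear axis for Ltc4s) in the 8 groups; each point is a library (circle 1a, square 1b, triangle 2), each bar the mean of 3, and the dotted line parts blood from lung. Ptgs2 was 8.15 to 85.2 CPM in the 6 blood libraries at 12h and 60.4 to 1829 CPM in all others.

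The first question was how these genes changed after CLP within each genotype and tissue. In WT blood, Alox5ap, Lta4h, Ltb4r1 and Ptges rose and Ptgs2 fell, while Alox5, Pla2g4a, Ptgs1 and Ltc4s were not called. Ltb4r1 was 122, 31.7 and 84.2 CPM in libraries 1a, 1b and 2 at 0h and 772, 420.5 and 658 CPM at 12h. Every 12h library was above every 0h library, a 6.87-fold rise (log2 fold change 2.78, standard error 0.47, adjusted p = 0.0113). Alox5ap was 1151, 378 and 842 CPM at 0h and 3235, 2107 and 2699.8 CPM at 12h, again without overlap (log2 fold change 1.59, standard error 0.43, adjusted p = 0.0495). Lta4h, the enzyme that makes leukotriene B4, was 93.9, 23.6 and 62.5 CPM at 0h and 514, 209 and 216 CPM at 12h (log2 fold change 2.20, standard error 0.53, adjusted p = 0.0326). Its groups did not overlap either.

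The prostaglandin genes of WT blood moved in opposite directions. Ptgs2 was 1194, 187 and 1045 CPM at 0h and 10.3, 14.8 and 39.5 CPM at 12h. The highest 12h library was below the lowest 0h library, and the fall was 41.9-fold (log2 fold change -5.39, standard error 0.83, adjusted p = 0.00769). Ptges, downstream of Ptgs2, was 6.13, 2.44 and 3.45 CPM at 0h and 51.9, 17.9 and 35.3 CPM at 12h. It rose 7.37-fold without overlap (log2 fold change 2.88, standard error 0.44, adjusted p = 0.00748). Ptgs1 was 14.7 to 39.4 CPM at 0h and 16.8 to 55.3 CPM at 12h, and Alox5 251 to 794 CPM and 610.4 to 757 CPM, with overlap in both. Pla2g4a was 12.1 to 22.3 CPM at 0h and 17.2 to 26.9 CPM at 12h. Ltc4s rested on 31, 16 and 28 counts at 0h and on 0, 3 and 3 counts at 12h, without overlap but not called (adjusted p = 0.0825).

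In WT blood, 5 of the 9 genes were called, 4 higher and 1 lower, beside 13.5% of all 14625 genes tested, 7.75% higher and 5.75% lower. The groups did not overlap for 6 of the 9, beside 34.7% of all genes. The median log2 fold change of the 9 was 0.19, against -0.15 over all genes tested. All 5 calls were lost without library 1a or 2 of either time, while the fitted changes kept their direction. No member was called without 0h library 1a, 0h library 2, 12h library 1a or 12h library 2, where 0.811%, 0.255%, 0.102% and 0.00999% of all genes were called. For Ptgs2 the adjusted p was then 0.0711, 0.0949, 0.145 and 0.114, with log2 fold changes of -5.04, -5.12, -5.04 and -6.09. The log2 fold changes were 3.22, 2.88, 2.67 and 2.79 for Ltb4r1 and 1.95, 1.70, 1.52 and 1.65 for Alox5ap. For Lta4h they were 2.66, 2.28, 1.75 and 2.45, and for Ptges 3.36, 2.87, 2.61 and 2.98. Without 12h library 1b (9.9% of all genes called), Alox5ap was no longer called (adjusted p = 0.0699) and the other 4 were, and without 0h library 1b (18.4%) all 5 were.

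In αD KO blood, the same directions were seen for 4 called genes. Alox5ap was 739, 472 and 695 CPM at 0h and 2795, 3233 and 2805 CPM at 12h, the rise with the smallest standard error of the 4 (log2 fold change 2.02, standard error 0.29, adjusted p = 0.00753). Ltb4r1 was 159, 46.4 and 116 CPM at 0h and 371, 436 and 374 CPM at 12h (log2 fold change 1.74, standard error 0.38, adjusted p = 0.0325). The 12h libraries of both genes were all above the 0h libraries. Ptgs2 was 1343, 376 and 585 CPM at 0h and 85.2, 8.15 and 10.7 CPM at 12h, a 25.6-fold fall without overlap (log2 fold change -4.68, standard error 0.96, adjusted p = 0.0270). Ptges was 4.42, 2.68 and 5.01 CPM at 0h and 16.3, 10.5 and 24.3 CPM at 12h (log2 fold change 1.85, standard error 0.42, adjusted p = 0.0355), again without overlap.

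The other 5 genes of αD KO blood were not called. Lta4h was 166, 35.4 and 176 CPM at 0h and 263, 166 and 234 CPM at 12h, with library 1b low at both times. Pla2g4a was 17, 15.3 and 17.8 CPM at 0h and 9.78, 12.3 and 7.15 CPM at 12h, without overlap (log2 fold change -0.98, standard error 0.38, adjusted p = 0.141). Alox5, Ltc4s and Ptgs1 overlapped between the times.

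Called genes were 4 of 9 in αD KO blood, 3 higher and 1 lower, beside 8.75% of all 14156 genes tested, 3.75% higher and 4.99% lower. Groups did not overlap for 5 of the 9, beside 32.2% of all genes. The median log2 fold change of the 9 was 0.01, against -0.14 over all genes tested. Without 0h library 1a no member was called, beside 0.456% of all genes (adjusted p = 0.0631 for Alox5ap, 0.096 for Ltb4r1, 0.121 for Ptgs2 and 0.148 for Ptges), with log2 fold changes of 2.17, 2.14, -4.02 and 1.95. With the files of sample 1 summed, 2 were called, Alox5ap and Ltb4r1, beside 3.84% of all genes (adjusted p = 0.0505 for Ptgs2 and 0.0729 for Ptges). Alox5ap stayed called without any 1 library other than 0h library 1a. Without 0h library 1b, 0h library 2, 12h library 1a, 12h library 1b and 12h library 2, members called were 2, 1, 2, 4 and 1, beside 4.67%, 3.51%, 1.54%, 8.74% and 0.973% of all genes. The 4 without 12h library 1b included Ptgs1. Ltb4r1 was called by edgeR in none of the fits that left out a library (adjusted p = 0.052 to 0.135), and Ptges only in that without 12h library 1b. Fitting all 8 groups together gave 0, beside 0.236% of all genes (adjusted p = 0.054 for Alox5ap and 0.0579 for Ptgs2).

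In WT lung neutrophils Ptges and Ltb4r1 rose, and Ptgs2 was not called. Ptges was 1.92, 2.48 and 1.66 CPM at 0h and 61.6, 6.26 and 29.4 CPM at 12h, with all 12h libraries above all 0h libraries and library 1b the lowest of them (log2 fold change 3.81, standard error 0.67, adjusted p = 0.0170). Ltb4r1 was 89.5, 45.4 and 65 CPM at 0h and 214, 360.1 and 425 CPM at 12h (log2 fold change 2.34, standard error 0.45, adjusted p = 0.0224), also without overlap. Alox5ap was 855, 441 and 801 CPM at 0h and 1504, 2049 and 1948 CPM at 12h, and Lta4h was 66.5, 34.9 and 55.4 CPM at 0h and 115, 84.8 and 142 CPM at 12h. Neither overlapped, and neither was called by edgeR (log2 fold change 1.42, adjusted p = 0.0877, and 1.08, adjusted p = 0.0721). DESeq2, which called 17.6% of all genes, called both, with adjusted p = 0.0108 for Alox5ap and 0.0359 for Lta4h. Ptgs2 was 718, 847 and 1829 CPM at 0h and 989, 60.4 and 1538 CPM at 12h, so only library 1b was low (log2 fold change -0.59, 95% confidence interval -2.55 to 1.37). Pla2g4a was 26.8, 12.8 and 27.3 CPM at 0h and 6, 13.3 and 10.3 CPM at 12h, with overlap through library 1b.

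In WT lung, 2 of the 9 genes were called, both higher, beside 9.02% of all 14859 genes tested (5.24% higher and 3.78% lower), and the groups did not overlap for 4 of the 9, beside 28.5% of all genes. The median log2 fold change of the 9 was below that of all genes here, at -0.38 against 0.03. Leaving out 12h library 1b raised the members called to 5, beside 25.3% of all genes, with adjusted p = 0.000727 for Ptges and 0.00715 for Ltb4r1. No member was called without 0h library 1a, 0h library 2, 12h library 1a or 12h library 2, where 0%, 0%, 0% and 0.122% of all genes were called (adjusted p = 0.241, 0.216, 0.148 and 0.131 for Ptges). The log2 fold changes were then 3.94, 3.80, 2.94 and 3.72 for Ptges and 2.60, 2.25, 2.45 and 1.99 for Ltb4r1. Without 0h library 1b, Ptges alone was called, beside 5.03% of all genes (adjusted p = 0.0482), and Ltb4r1 had an adjusted p of 0.0599.

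αD KO lung showed no such change as labelled. Ltb4r1 was 101, 40.7 and 238 CPM at 0h and 85.3, 247 and 188 CPM at 12h (log2 fold change 0.64, adjusted p = 1). Alox5ap was 663, 489 and 1769.8 CPM at 0h and 679, 1197 and 1096 CPM at 12h, and Ptges was 1.42, 2.53 and 40.6 CPM at 0h and 2.98, 8.88 and 5.58 CPM at 12h. In each of these 3 genes the library labelled 0h 2 was high for its group and the library labelled 12h 1a low. Of the 9 genes 0 were called, beside 0% of all 17939 genes tested, of which 72 (0.401%) had an unadjusted p under 0.05 in edgeR and 0 (0%) were called by DESeq2. None of the 9 had an unadjusted p under 0.05, and the groups did not overlap for 0 of 9, beside 2.86% of all genes. In a fit of all 8 groups without the 3 libraries that went against their labels, the log2 fold change was 1.93 for Ltb4r1, 1.21 for Alox5ap and 2.38 for Ptges, against 0.45, 0.02 and -1.35 in the same fit with them. The libraries left out were picked by genes called in WT lung, so a shift towards the WT change is built in. It cannot show whether αD KO lung changed after CLP.

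**Figure D2:**
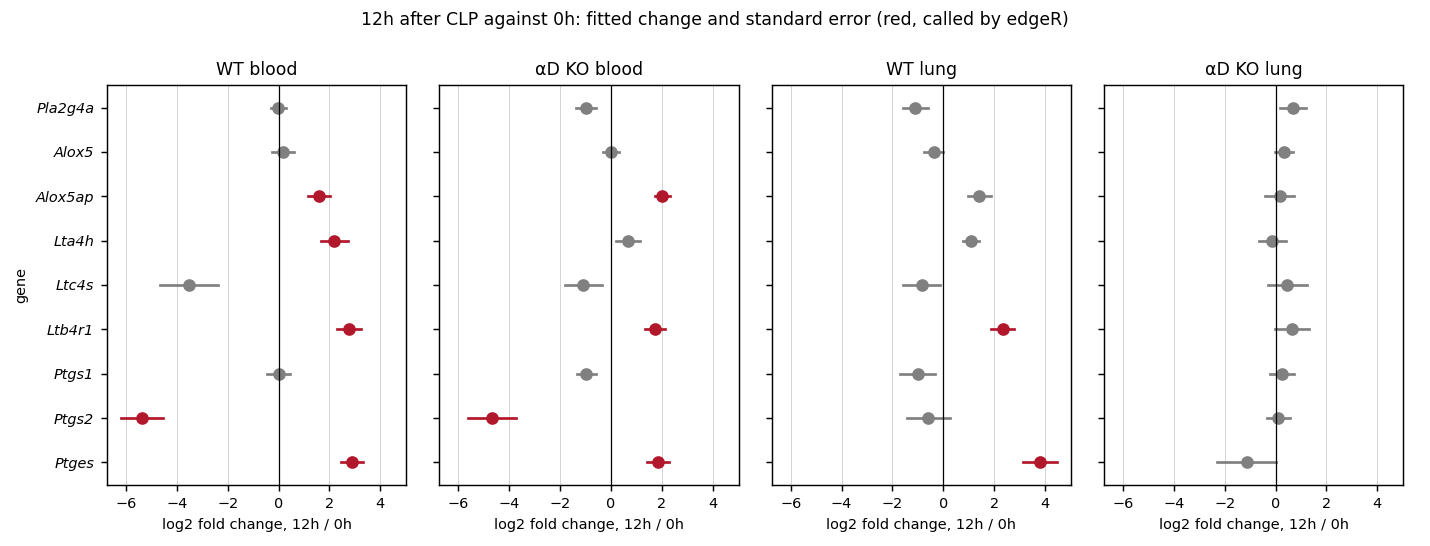
Fitted log2 fold change of 12h against 0h (x axis) for the 9 genes (y axis) in 4 arms, with bars for the standard error; red marks genes called by edgeR. Ptgs2 stands at -5.39 in WT blood and -4.68 in αD KO blood, and Ptges, Ltb4r1 and Alox5ap at positive values in these arms and in WT lung.

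**Figure D3:**
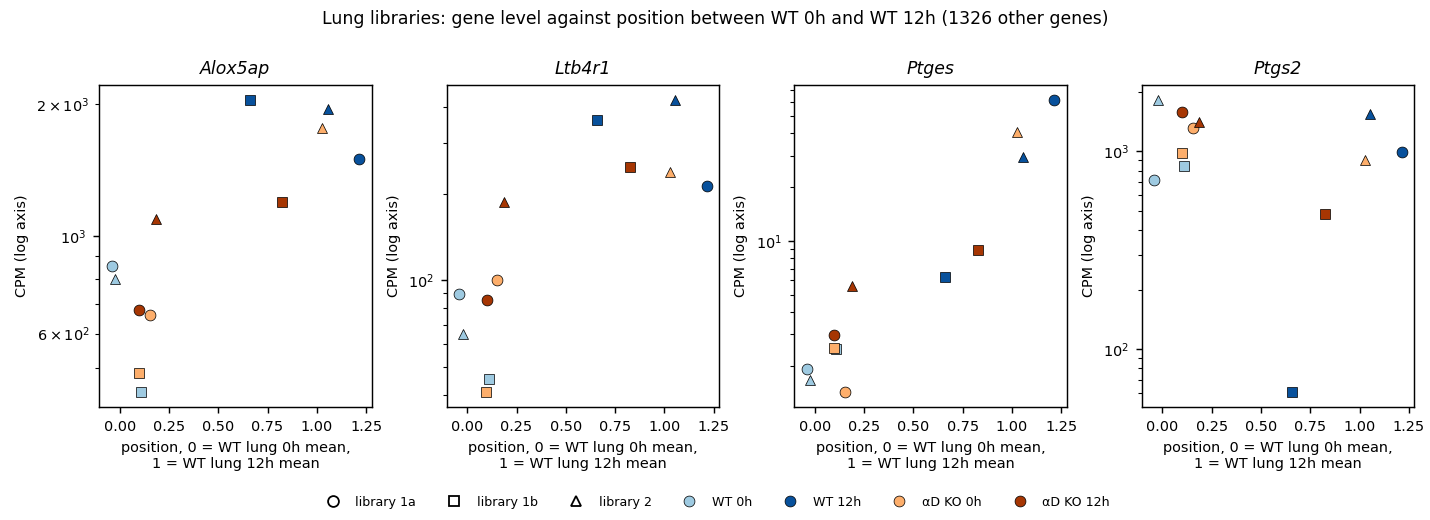
Level of 4 genes (CPM, log axis) in the 12 lung libraries against each library's position on an axis with WT lung 0h at 0 and WT lung 12h at 1, from 1326 other genes that were themselves called between these groups; a WT library is left out of its own group mean. The library labelled αD KO lung 0h 2 (orange triangle, at 1.03) had 40.6 CPM of Ptges, and the library labelled αD KO lung 12h 1a (brown circle, at 0.0995) had 2.98 CPM.

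Markers of neutrophils, of their stage and of other cells moved with the 12h groups. The 10 neutrophil markers summed to 31056 to 54099 CPM in WT blood 0h and 118224 to 215740.0 CPM in WT blood 12h, to 37689 to 64594 and 124897 to 154178 CPM in αD KO blood, and to 40576 to 58628 and 82969 to 145032 CPM in WT lung. Of these 10, 7, 4 and 6 were higher in all 12h libraries and 1, 2 and 2 lower. Granule genes of immature neutrophils (10 genes, among them Ltf, Camp and Lcn2) summed to 509 to 7493 CPM in WT blood 0h and 65269 to 145538 CPM in WT blood 12h, to 832 to 19518 and 36510.4 to 110229 CPM in αD KO blood, and to 746 to 2704 and 29973 to 90940.3 CPM in WT lung. No overlap between the times was found for 6, 3 and 5 of these 10 genes, all higher at 12h, and Mpo stayed at 1.98 CPM or less in every library of these groups. In αD KO lung the sum was 982 to 73643 CPM at 0h, highest in the library labelled 0h 2, and 8410.0 to 25689 CPM at 12h. Their part in the results above was not tested.

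Of 15 monocyte and macrophage markers, 4 were higher and 3 lower in all WT blood libraries at 12h. Their sum went from 480.3 to 1956 CPM at 0h to 16012 to 46851 CPM at 12h, of which Chil3 alone made 15450.3 to 45768 CPM. In αD KO blood the sum was 646 to 4500.2 CPM at 0h and 4758 to 20408 CPM at 12h, and in WT lung 707 to 1171 CPM and 4680.4 to 9523 CPM. The monocyte receptor Csf1r went the other way in WT blood, from 305 to 835 CPM down to 83.1 to 216 CPM, and so did Adgre1, from 66.9 to 213 CPM down to 8.59 to 59.9 CPM. All 15 had counts in every group. Markers of mast cells, basophils and eosinophils, in which Ltc4s is typically active, summed to 54.3 to 73.2 CPM in WT blood 0h and 6.3 to 9.47 CPM in WT blood 12h, where 3 of 15 had 0 counts. In αD KO blood the sum went from 60.1 to 62 CPM at 0h to 3.72 to 5.73 CPM at 12h, where 6 of 15 had 0 counts, and Ltc4s there was 1.85, 0.706 and 1.63 CPM at 0h and 1.14, 0.448 and 0.643 CPM at 12h. In WT lung the sum was 66 to 126 CPM at 0h and 6.56 to 28.5 CPM at 12h. In WT blood, αD KO blood and WT lung, 3, 5 and 2 of the 15 were lower in all 12h libraries, and 0 higher. Siglecf alone made 25.7 to 63.9 CPM of the sum in WT blood 0h and 5.48 to 7.38 CPM at 12h. B cell markers were lower in sum at 12h, without overlap, in the same 3 arms: 278 to 1215 CPM at 0h and 43.2 to 252 CPM at 12h in WT blood, 328 to 1444 and 39.1 to 144 CPM in αD KO blood, and 433 to 794 and 36.3 to 85.5 CPM in WT lung, with 1, 4 and 9 of 10 genes lower in all 12h libraries. The 1 in WT blood was Ighm, which alone made 242 to 1186 CPM at 0h and 30.7 to 162 CPM at 12h. T and NK cell markers summed to 22.3 to 35.8 CPM at 0h and 14.9 to 17.8 CPM at 12h in WT blood, to 17.7 to 488.9 and 10.3 to 19.7 CPM in αD KO blood, and to 19.8 to 23.5 and 9.39 to 19.6 CPM in WT lung, with 4, 6 and 2 of 11 genes lower in all 12h libraries and none higher. The part of these cells in the results was not tested.

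The wider pathway was read from 84 other eicosanoid genes, of which 81 are in the files. In WT blood 14 of 51 tested were called at 12h, 10 higher and 4 lower, in αD KO blood 13 of 50, 6 higher and 7 lower, and in WT lung 11 of 51, 8 higher and 3 lower, beside 13.5%, 8.75% and 9.02% of all genes. Their median log2 fold changes were 0.02, -0.42 and 0.08, against -0.15, -0.14 and 0.03 over all genes tested. In αD KO lung 0 of 69 were called, beside 0% of all genes, with 1 at an unadjusted p under 0.05. The 3 genes called higher in all 3 other arms were Ggt1, Fpr2 and Ptges2, and Ptger2 was called lower in all 3. In WT lung 0% of all genes were called without 0h library 1a, 0h library 2 or 12h library 1a, so none of these 11 list genes was. In WT blood 2 of 20016 genes were called without 12h library 2.

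Ggt1, a gamma-glutamyl transferase that trims leukotriene C4 to leukotriene D4, had the largest rises of the list genes called in each of these arms. It was 1.92, 0.996 and 2.53 CPM in WT blood 0h and 300.3, 137 and 386 CPM at 12h (log2 fold change 6.99, standard error 0.50, adjusted p = 0.00128). In αD KO blood it was 3.24, 1.06 and 1.63 CPM at 0h and 65, 418 and 108 CPM at 12h (log2 fold change 6.53, adjusted p = 0.00653), and in WT lung 2.48, 1.19 and 1.17 CPM and 151, 456 and 115 CPM (log2 fold change 7.38, adjusted p = 0.00540). Groups overlapped in none of these arms. Dpep2, a dipeptidase of the next step to leukotriene E4, rose in WT blood (log2 fold change 4.50, adjusted p = 0.0339) and WT lung (3.80, adjusted p = 0.0385). Its 0h level in WT blood library 1a rested on 1 count. The exporter of leukotriene C4, Abcc1, rose in WT lung (log2 fold change 3.99, adjusted p = 0.0294), with 251, 14.9 and 125 CPM at 12h.

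Cyp4f18, a cytochrome P450 that hydroxylates leukotriene B4, fell in blood of both genotypes. It was 3366, 609 and 1971 CPM in WT blood 0h and 196, 208 and 331 CPM at 12h (log2 fold change -3.17, standard error 0.60, adjusted p = 0.0163). In αD KO blood it was 1594, 808 and 1110.0 CPM at 0h and 173, 79.3 and 145 CPM at 12h (log2 fold change -3.36, standard error 0.36, adjusted p = 0.00331), and there it was called without any 1 of the 6 libraries (highest adjusted p = 0.0423). In WT lung it was 1872, 920.1 and 1757 CPM at 0h and 379.8, 251 and 882 CPM at 12h (log2 fold change -1.68, adjusted p = 0.0756). The fall of Cyp4f18 thus ran beside the rise of Alox5ap and Ltb4r1 in both blood arms.

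Among the receptors, Fpr2, which binds formyl peptides and lipoxin A4, rose with log2 fold changes of 3.18 in WT blood (adjusted p = 0.00467), 2.68 in αD KO blood (adjusted p = 0.00484) and 2.71 in WT lung (adjusted p = 0.0104). Its ligand annexin A1 (Anxa1) rose in both blood arms (2.75, adjusted p = 0.0197, and 2.25, adjusted p = 0.0410). Ptger2, a prostaglandin E2 receptor, was 102, 37 and 69.8 CPM in WT blood 0h and 15.7, 17.4 and 18.9 CPM at 12h (log2 fold change -2.16, adjusted p = 0.00998). It fell by 1.73 on the log2 scale in αD KO blood (adjusted p = 0.0109) and by 1.65 in WT lung (adjusted p = 0.0253). Ptger4, another receptor of the same ligand, was not called in any arm (adjusted p = 0.101, 0.236, 0.671 and 1). The prostacyclin receptor gene Ptgir rose in WT blood (2.68, adjusted p = 0.0194) and WT lung (2.97, adjusted p = 0.00843). Ptger3 fell in WT blood (log2 fold change -4.24, adjusted p = 0.0247) from 51, 70 and 58 counts to 2, 3 and 6.

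Of the other enzymes, Ptges2 rose in WT blood, αD KO blood and WT lung (log2 fold changes 1.09, 1.71 and 3.06, with adjusted p = 0.0436, 0.0249 and 0.0178). Ptgr1, which inactivates leukotriene B4 and prostaglandins, rose in WT blood (log2 fold change 2.76, adjusted p = 0.0350). The thromboxane synthase gene Tbxas1 fell by 2.20 on the log2 scale in αD KO blood (adjusted p = 0.0178), with log2 fold changes of -1.41 in WT blood (adjusted p = 0.0806) and -2.62 in WT lung (adjusted p = 0.0676). Of the genes that load or remodel arachidonic acid, Acsl4 rose in WT blood and WT lung (1.55 and 1.62), Mboat7 in αD KO blood and WT lung (1.43 and 1.71) and Lpcat3 in both blood arms (1.55 and 1.43). Cyp4f16 and Ptgfrn fell in αD KO blood (-3.08 and -3.89) and WT lung (-3.17 and -2.07), and the reductase gene Cbr1 fell in αD KO blood (-3.03).

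Alox12, the platelet 12-lipoxygenase, fell in both blood arms (log2 fold changes -3.43, adjusted p = 0.0194, and -3.98, adjusted p = 0.0493). It was 25.2, 5.7 and 13.8 CPM in WT blood 0h and 90.2, 4.09 and 113 CPM in αD KO blood 0h. Of 15 platelet markers, 12 were lower in all WT blood libraries at 12h and 2 in all αD KO blood libraries. Their sum was 104 to 289.6 CPM in WT blood 0h and 27.2 to 72.5 CPM at 12h, and 67.6 to 1249.7 CPM in αD KO blood 0h and 19.3 to 106 CPM at 12h. All 15 had counts in these groups, and their part in the fall of Alox12 was not tested.

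**Figure D4:**
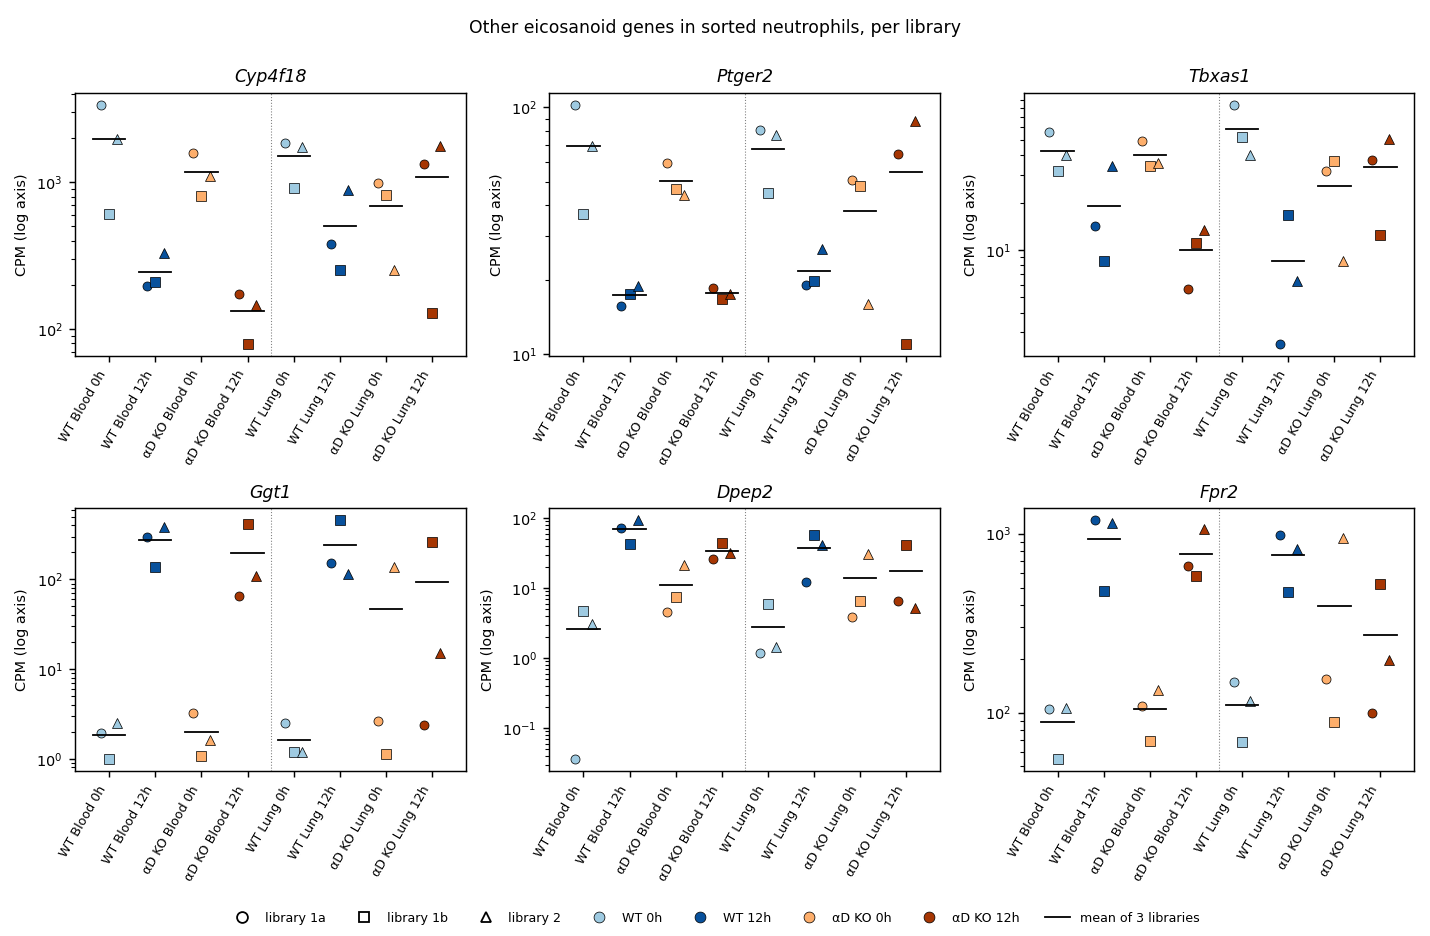
Level (CPM, log axis) of 6 other eicosanoid genes in the 8 groups, drawn as for the 9 genes: each point is a library, each bar the mean of 3. Ptger2 was 15.7 to 18.9 CPM in the 6 blood libraries at 12h and 37 to 102 CPM in the 6 at 0h, and Ggt1 0.996 to 3.24 CPM in blood at 0h and 65 to 418 CPM at 12h.

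The next question was whether αD KO neutrophils differed from WT in these genes, with both named as labelled, since Itgad does not settle the labels. None of the 9 was called in any of the 4 comparisons of αD KO with WT, beside 0.0115% of all genes in blood 0h (2 of 17356), 0% in blood 12h (of 12596), 0% in lung 0h (of 18232) and 0% in lung 12h (of 16764). At an unadjusted p under 0.05 edgeR gave 123, 505, 340 and 1390 genes (0.709%, 4.01%, 1.86% and 8.29%), with 0, 2, 0 and 2 of the 9 among them. DESeq2 called 5, 14, 7 and 154 genes (0.0118%, 0.121%, 0.0163% and 1.4%), of which 0 were among the 9. Ltc4s was too low to be tested in blood 12h. Comparisons at a time and tissue share no libraries with each other, but each shares its groups with a comparison of times.

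At baseline the 9 genes did not separate the genotypes. In blood 0h the largest fitted difference was that of Lta4h, at 166, 35.4 and 176 CPM in αD KO against 93.9, 23.6 and 62.5 CPM in WT (log2 fold change 1.05, 95% confidence interval -0.32 to 2.42). Ptgs2 and Ptges had fitted differences of -0.03 (interval -1.55 to 1.49) and -0.01 (interval -1.31 to 1.30). The groups overlapped for all 9 genes, beside 2.99% of all genes without overlap. In lung 0h they overlapped for all 9 too, beside 6.85% without. Ptges had the largest fitted difference there (2.70, interval -0.04 to 5.43), with 1.42, 2.53 and 40.6 CPM in αD KO against 1.92, 2.48 and 1.66 CPM in WT. It rested on the library labelled αD KO lung 0h 2, and without the 3 libraries that went against their labels it was -0.13.

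At 12h in blood, Ptges and Pla2g4a were lower in αD KO before adjustment. For Pla2g4a the αD KO libraries had 9.78, 12.3 and 7.15 CPM against 17.2, 18.1 and 26.9 CPM, without overlap (log2 fold change -1.06, standard error 0.37, unadjusted p = 0.0197, adjusted p = 0.962 in edgeR). The level of Ptges was 16.3, 10.5 and 24.3 CPM in αD KO against 51.9, 17.9 and 35.3 CPM, with overlap (log2 fold change -1.01, standard error 0.37, unadjusted p = 0.0255, adjusted p = 0.962). Alox5 was 480.3, 606 and 458 CPM in αD KO blood and 692, 757 and 610.4 CPM in WT blood, without overlap but with an interval of the log2 difference from -1.14 to 0.30. Groups did not overlap for 2 of the 8 genes tested, beside 7.93% of all genes. For Alox5ap the difference was 0.17 (interval -0.45 to 0.79), and for Ltb4r1 -0.60 (interval -1.22 to 0.03), with 371, 436 and 374 CPM against 772, 420.5 and 658 CPM.

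At 12h in lung, Ptges was lower and Pla2g4a higher in αD KO before adjustment. The Ptges libraries had 2.98, 8.88 and 5.58 CPM in αD KO lung against 61.6, 6.26 and 29.4 CPM in WT lung, with overlap through WT library 1b (log2 fold change -2.16, standard error 0.76, unadjusted p = 0.0214, adjusted p = 0.598 in edgeR). For Pla2g4a they had 19.7, 14.4 and 28.1 CPM against 6, 13.3 and 10.3 CPM, without overlap (log2 fold change 1.15, standard error 0.48, unadjusted p = 0.0419, adjusted p = 0.598). Alox5ap was 679, 1197 and 1096 CPM in αD KO lung and 1504, 2049 and 1948 CPM in WT lung, also without overlap (log2 fold change -0.73, interval -1.84 to 0.38). Without the libraries that went against their labels these differences were -1.71 for Ptges, 0.66 for Pla2g4a and -0.49 for Alox5ap, and those of Ptgs2 (0.70), Ltc4s (0.62), Alox5 (0.38) and Ptgs1 (0.32) turned to -0.64, -0.63, -0.35 and -0.03. Groups did not overlap for 2 of 9 genes, beside 10% of all genes. Granule genes of immature neutrophils summed to 8410 to 25689 CPM in αD KO lung 12h and 29973 to 90940 CPM in WT lung 12h. Monocyte and macrophage markers summed to 1528 to 4473 CPM and 4680 to 9523 CPM. Neither sum overlapped, and the part of these markers in the differences was not tested.

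With libraries 1a and 2 alone, 2 against 2, edgeR called Ptges (-3.25, adjusted p = 0.000427), Pla2g4a (1.68, adjusted p = 0.00865) and Ptgs1 (1.27, adjusted p = 0.0160) in lung 12h, beside 30.1% of all genes, but both αD KO libraries of that test went against their label. In the fit without such libraries the log2 values were -1.71 for Ptges, 0.66 for Pla2g4a and -0.03 for Ptgs1.

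**Figure D5:**
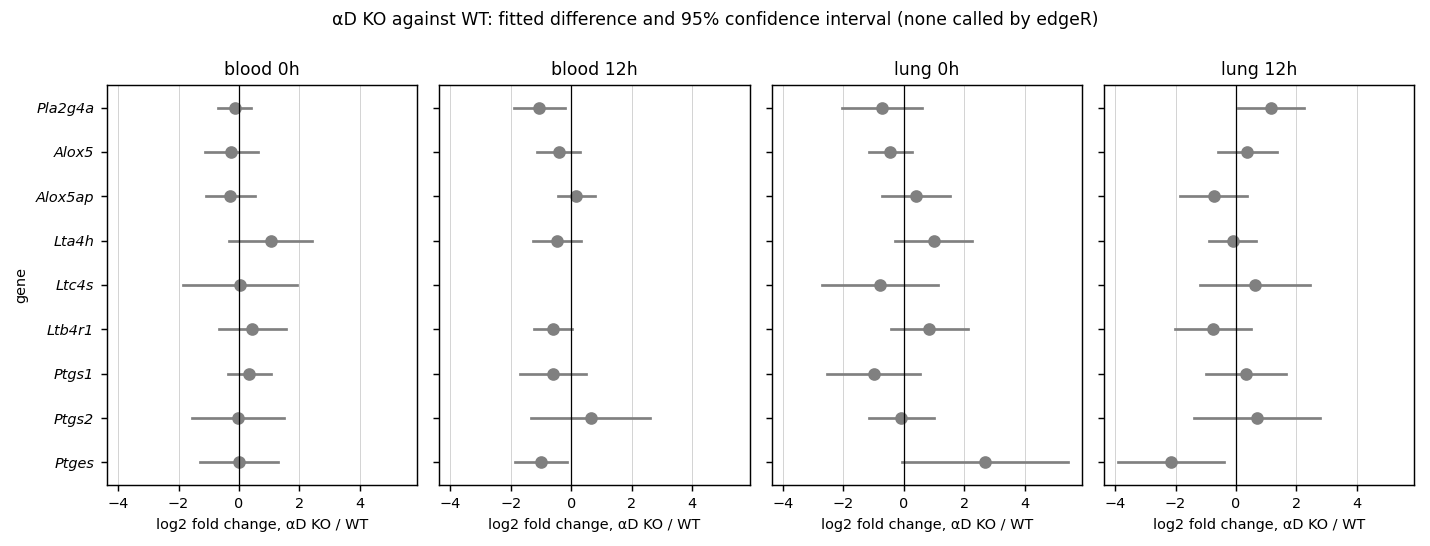
Fitted log2 difference of αD KO from WT (x axis) for the 9 genes (y axis) in the 4 comparisons, with bars for the 95% confidence interval; Ltc4s was not tested in blood 12h. No gene was called, and the interval stays on 1 side of 0 for Pla2g4a and Ptges in blood 12h and in lung 12h.

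Whether the change after CLP differed between the genotypes was tested as an interaction. In blood none of the 9 was called (0% of 19792 genes tested, 1.17% at an unadjusted p under 0.05, and 0.00232% called by DESeq2), and the interval of the difference was -2.04 to 3.68 for Ptgs2 and -0.83 to 2.00 for Alox5ap. In lung none was called by edgeR (0% of 23211 genes, 10.5% at an unadjusted p under 0.05), while DESeq2 called 2.7% of the genes it tested and among them Ptges. Its log2 interaction was -4.96 (standard error 1.49, unadjusted p = 0.00607, adjusted p = 0.410 in edgeR, adjusted p = 0.0329 in DESeq2). Pla2g4a had a log2 interaction of 1.86 (unadjusted p = 0.0331, adjusted p = 0.430). This contrast uses all 3 libraries that went against their labels, and without them the values were -1.58 for Ptges and 1.10 for Pla2g4a.

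The last question was how lung neutrophils differed from blood neutrophils. At 0h Ptgs2 was at 187 CPM or more in both tissues, and at 12h its level was higher in every lung library than in every blood library of the same genotype. In WT at 12h it was 989, 60.4 and 1538 CPM in lung and 10.3, 14.8 and 39.5 CPM in blood, and in αD KO 1591, 484 and 1412 CPM in lung and 85.2, 8.15 and 10.7 CPM in blood. The fitted difference was 37.8-fold in each (log2 fold change 5.24, standard error 1.04, adjusted p = 0.110 in WT, and 5.24, standard error 0.99, adjusted p = 0.0920 in αD KO), and it was not called by edgeR (95% confidence interval 2.86 to 7.62 in WT and 2.99 to 7.49 in αD KO). DESeq2 called Ptgs2 in both, with adjusted p = 1.89e-08 and 2.70e-09.

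In a fit blocked on library number, Ptgs2 was called in αD KO (adjusted p = 0.0396, beside 0.144% of all genes) and not in WT (adjusted p = 0.0615, beside 0.478%). Without WT lung library 1b, where Ptgs2 was low, its adjusted p was 0.00212 in WT, beside 20.2% of all genes called. In αD KO the lung value rests on libraries 1a and 2, which lie near the 0h end of the axis, and without the libraries that went against their labels the log2 difference was 4.01.

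Alox5ap and Lta4h had lower levels in lung than in blood at 12h, but were not called. Alox5ap was 1504, 2049 and 1948 CPM in WT lung and 3235, 2107 and 2699.8 CPM in WT blood, and 679, 1197 and 1096 CPM in αD KO lung against 2795, 3233 and 2805 CPM in αD KO blood. Lung and blood did not overlap in either genotype, with a log2 fold change of -0.36 in WT and of -1.34 in αD KO (standard error 0.43, adjusted p = 0.141 in edgeR, 0.0372 in DESeq2). Lta4h was 115, 84.8 and 142 CPM in WT lung against 514, 209 and 216 CPM in WT blood, without overlap (log2 fold change -1.35, standard error 0.39, adjusted p = 0.163 in edgeR, 0.0414 in DESeq2). In αD KO it was 99.3, 65.9 and 115 CPM in lung and 263, 166 and 234 CPM in blood (-1.07, adjusted p = 0.123), again without overlap. Pla2g4a was lower in WT lung than WT blood without overlap (log2 fold change -0.85) and higher in αD KO lung than αD KO blood without overlap (1.24, adjusted p = 0.137). Without the libraries that went against their labels, the αD KO values were -1.11 for Alox5ap, -1.54 for Lta4h and 0.74 for Pla2g4a.

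Of the 9 genes 0 were called between the tissues in WT 0h, αD KO 0h, WT 12h and αD KO 12h, beside 0%, 0%, 0.0442% and 0.0548% of all genes tested, while 0, 0, 4 and 4 had an unadjusted p under 0.05, beside 2.54%, 2.91%, 18.1% and 22.2%. DESeq2 called 0, 0, 2 and 2, beside 0.317%, 0.639%, 7.23% and 7.35%. Groups did not overlap for 0, 1, 6 and 6 of 9, beside 5.72%, 6.61%, 22.4% and 28.8% of all genes, and the gene at αD KO 0h was Alox5, at 331, 331 and 301 CPM in lung and 609, 360.2 and 371 CPM in blood (log2 fold change -0.47, and -0.42 without the library labelled αD KO lung 0h 2 and the others that went against their labels). Of the 81 other eicosanoid genes, Hpgd, which breaks down prostaglandins, was called higher in αD KO lung at 12h (log2 fold change 4.17, standard error 0.51, adjusted p = 0.0440). It was 13.9, 18.9 and 27.8 CPM in lung and 2, 0.806 and 1.07 CPM in blood, and blocked on library number its adjusted p was 0.0527. Without the libraries that went against their labels its log2 fold change was 4.06. Lung structural markers (21 genes) summed to 100.1 to 511 CPM in αD KO lung 12h and 41.9 to 186 CPM in αD KO blood 12h, and in WT at 12h to 295 to 609 CPM in lung and 92.3 to 128 CPM in blood, without overlap. Summed monocyte and macrophage markers were lower in lung at 12h without overlap. They were 4680 to 9523 CPM in WT lung and 16012 to 46851 CPM in WT blood. In αD KO they were 1528 to 4473 CPM in lung and 4758 to 20408 CPM in blood. Granule genes of immature neutrophils were also lower in αD KO lung (8410 to 25689 CPM against 36510 to 110229 CPM), and overlapped in WT. The part of these markers in the level of Hpgd and in the differences of Ptgs2, Lta4h and the other members between the tissues was not tested.

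Whether the change after CLP differed between the tissues was tested as an interaction in each genotype. Ptgs2 had a log2 interaction of 4.74 in WT (standard error 1.36, unadjusted p = 0.00469, adjusted p = 0.876 in edgeR) and of 4.63 in αD KO (standard error 1.17, unadjusted p = 0.00154, adjusted p = 0.403), lung minus blood. DESeq2 called both (adjusted p = 0.0156 and 0.00664, beside 0.671% and 1.73% of all genes). In these fits the median of all genes lay at 0.56 and 0.44, so the values of Ptgs2 stand above a shifted centre. In αD KO Alox5ap had an interaction of -2.18 (unadjusted p = 0.00862, adjusted p = 0.403) and Ptges of -3.39 (unadjusted p = 0.0251, adjusted p = 0.408). Without the libraries that went against their labels the αD KO values were 3.44 for Ptgs2, -1.02 for Alox5ap and 0.31 for Ptges, which turned direction. No member was called by edgeR, beside 0% of 23497 genes in WT and 0% of 22218 in αD KO, with 5.49% and 10.6% at an unadjusted p under 0.05. The same test of genotype by tissue at 12h called none of the 9 (0% of 18236 genes, 9.84% at an unadjusted p under 0.05). With the files of sample 1 summed it called 2.81% of all genes, Pla2g4a among them.

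The genes whose levels ran most like those of the 5 called members were found by Pearson correlation of log2 CPM over the 24 libraries, among 27145 genes. The libraries share groups and library numbers, so the values are a description. For Ptgs2 they were its neighbour on the other strand Ptgs2os2 (r = 0.95), 50816 bases away, Atf3 (0.95) and Btg1 (0.94). For Ltb4r1 they were the neutrophil collagenase Mmp8, Capg and Cd177 (0.98, 0.98 and 0.97). Alox5ap ran with Glipr2, Gpi1 and Ap2s1 (0.98, 0.97 and 0.97), Lta4h with Cptp, Cops6 and Smim5 (0.96, 0.95 and 0.95), and Ptges with Clasp1, Tbc1d2 and Def8 (each 0.94). Between members, r was 0.95 for Alox5ap with Ltb4r1, 0.86 for Lta4h with Ltb4r1, 0.82 for Ptges with Ltb4r1 and -0.63 for Ptgs2 with Ltb4r1.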

How the data were processed

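Neutrophil RNA was sequenced after SMART-Seq v4 cDNA amplification and Nextera XT library preparation, which keeps no strand. The authors trimmed reads (Trimmomatic 0.36), mapped them (STAR 2.5.2b, GRCm38/mm10 in the submitters' notes) and counted unique reads within exons; the counter, its version and strand setting are not given in the sources used here. The deposited values are raw counts per gene, without normalization or molecular identifiers, and intervals given here come from the spread between libraries. Positions are those of 44823 genes that equal a GRCm38 annotation (GENCODE M21), and upstream sequences are from RefSeq (GRCm38.p6).

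From these counts, edgeR 4.0.16 (R 4.3.3, TMM, filterByExpr, two-sided quasi-likelihood F test) was fitted on the 6 libraries of each pair of groups and called at an adjusted p under 0.05 with an absolute log2 fold change over 1. An interaction was fitted on 12 libraries and called at an adjusted p under 0.05 with no limit on its size. The DESeq2 1.42.0 Wald test was an alternative. Tables were made with Python 3.11.15 and pandas 2.3.3. With 3 libraries against 3, an exact permutation test cannot go below p = 0.1. Each file was taken as a library, since the paper states triplicates while the labels list 2 samples per group. Libraries 1a and 1b differed far beyond counting noise (chi-square over degrees of freedom, 63.5 to 328). Separate libraries of an animal can differ so too, so this does not tell if they share an animal. If they share an animal, n is 2.

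Libraries of a number deviated together (correlation across genes over 0.1 for all 3 numbers) in WT blood 12h against 0h (0.46, 0.59 and 0.11), αD KO lung 12h against 0h (0.17, 0.41 and 0.36), αD KO against WT blood 0h (0.23, 0.75 and 0.27), and lung against blood at 12h in WT (0.19, 0.33 and 0.18) and αD KO (0.15, 0.34 and 0.20). Libraries 1b did so in every pair of groups compared, at 0.26 to 0.75. Among these were αD KO against WT lung 0h (0.75) and lung against blood at 0h in WT (0.74) and αD KO (0.72). The labels state no pairing.

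The 9 genes, the eicosanoid list and the markers were chosen with earlier results of these data known. Genes named are the 9 in every comparison; of the list, those called, or the 5 largest rises and 5 largest falls where more than 10 were called, and Ltb4r2, Cyp4f18, Tbxas1, Ptger2, Ptger4 and Hpgd; the 3 genes most correlated with each called member; and checks of the labels. Values of Fpr2 and Acsl4 in WT lung, of Ptgir, Ptges2, Acsl4 and Lpcat3 in WT blood, and of Mboat7 fall outside this rule and were chosen after they were seen.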

Additional observations from a re-analysis of the deposited data

Results flagged for a closer look

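Pla2g4a stood out because its groups moved in opposite directions without overlap. At 12h after CLP it was lower in αD KO than in WT blood (log2 fold change -1.06) while in lung it was the αD KO libraries that were higher (1.15), every library of a group lying on its side in both tissues. The difference between these differences was tested as an interaction of genotype and tissue at 12h, chosen after seeing the data. It was 2.07 (standard error 0.59, unadjusted p = 0.00414) and was not called by edgeR (adjusted p = 0.463), beside 0% of 18236 genes called and 1795 genes at an unadjusted p under 0.05. With the files of sample 1 summed it was called (adjusted p = 0.0375), as were 2.81% of all 20703 genes tested.

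Seen from the tissues, the same 12 libraries gave Pla2g4a a log2 fold change of -0.85 for lung against blood in WT and 1.24 in αD KO at 12h. The αD KO lung libraries 1a and 2, at 19.7 and 28.1 CPM, are those that went against their label. Without the 3 such libraries, in a fit of all 8 groups where the lone αD KO lung library at 12h is taken to vary like the other groups, the value was 0.74 in place of 1.24, 0.66 in place of 1.15 for αD KO against WT lung, and 1.65 in place of 2.07 for the interaction. Which genotype is higher rests on the labels, which the level of Itgad does not settle.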

How the results depend on the processing

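For the 28 log2 fold changes of the 9 genes between 2 groups that had an unadjusted p under 0.05, no alternative reversed a direction. Over these 28 values, alternatives other than leaving out a single library left the call as it was 270 times, lost it 12 times and gained it 30 times, and leaving out a library left it 113 times, lost it 45 times and gained it 7 times. Among all 45 values of the 9 genes in the 5 comparisons of 2 groups that use αD KO lung, the fit without the 3 libraries that went against their labels turned the direction of 18, none of them called, among them Ptges in αD KO lung 12h against 0h (-1.13 to 2.38) and in αD KO against WT lung 0h (2.70 to -0.13). The number of the 9 genes called moved in the following cases, and the cause was not tested. Without a filter on low counts it was 3 in WT blood 12h against 0h, 1 for lung against blood at 12h in both WT and αD KO, and 1 for the interaction of tissue and time in αD KO, beside 2.25%, 1.59%, 3.13% and 0.11% of all genes. With DESeq2 it was 4 in WT lung 12h against 0h, 2 for lung against blood at 12h in each genotype, and 1 for the interaction of genotype and time in lung and for those of tissue and time in WT and in αD KO, beside 17.6%, 7.23%, 7.35%, 2.7%, 0.671% and 1.73%. With all 8 groups in a single fit it was 0 in αD KO blood and 1 in WT lung, beside 0.236% and 1.65%. Summing the files of sample 1 gave 2 in αD KO blood, 1 and 3 for lung against blood at 12h in WT and αD KO, and 1 for the interaction of genotype and tissue at 12h, beside 3.84%, 4.47%, 8.27% and 2.81%. With libraries 1a and 2 alone it was 3 for αD KO against WT lung 12h, 4 in WT lung 12h against 0h, and 6 for lung against blood at 12h in each genotype, beside 30.1%, 37.2%, 28.2% and 34.3% of all genes. Of settings chosen after seeing the data, DESeq2 on all 8 groups gave 2 for lung against blood at 12h in each genotype (6.57% of all genes in WT and 10.7% in αD KO), and edgeR's newer quasi-likelihood fit gave 1 in αD KO (1.34%).

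With the library number as a replicate block the number called was 1 for lung against blood in αD KO 12h (Ptgs2, beside 0.144% of all genes), and the pairing of libraries changed no other number of members called by over 1.5 times. With each library left out in turn, members called ranged from 0 to 5 in WT blood, 0 to 4 in αD KO blood and 0 to 5 in WT lung (12h against 0h), from 0 to 5 and 0 to 3 for lung against blood at 12h in WT and αD KO, and from 0 to 1 for the interaction of tissue and time in WT. The share of all genes called ranged over the same fits from 0.00999% to 18.4%, 0.456% to 8.74%, 0% to 25.3%, 0% to 20.2%, 0% to 11.2% and 0% to 0.68%, and in the last 3 both the members and the share were highest without lung 12h library 1b. Over all genes, calls in WT blood, 1975 by edgeR, were 944 without a filter, 1118 with all 8 groups and 3201 with libraries 1a and 2. In αD KO blood 1238 became 64 with all 8 groups, 635 with files summed and 2199 with DESeq2, and in WT lung 1340 became 447 with all 8 groups, 893 with the block, 2354 with DESeq2, 2337 with files summed and 5299 with libraries 1a and 2. Low counts limit Ltc4s, with 0 to 69 counts per library.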
